A study of Mus musculus with 4 samples.

Results

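The granulocyte cluster was the largest cluster of CD11b+ cells sorted from mouse spleen, and its cells were taken by the label that the authors gave each cell. The label covered 3720 of the 11631 cells of the deposited table, 1929 of 4827 in the library from mice in the steady state and 1791 of 6804 in the library from GM-conditioned mice. The latter had received 3 daily subcutaneous injections of 10 µg of the cytokine GM-CSF and were sampled 24 h after the last, and the mice were 8 to 12 weeks old and otherwise shared the same sort for the surface integrin CD11b. There was 1 library per condition, how many mice each held is not given in the sources used here, and the difference between libraries and the effect of the treatment cannot be told apart. For that reason no p-value is given: every contrast below is a pair of values, with intervals that cover counting error only. RNA molecules were counted at their 3′ ends with unique molecular identifiers (UMIs), so that a count does not depend on the length of the gene, and antibodies with DNA barcodes counted 5 surface proteins on the same cells.

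Granulocytes mature in the bone marrow, where a neutrophil first fills its granules with proteinases and antimicrobial proteins and then switches those genes off before it enters the blood and the spleen. Mature neutrophils carry receptors that guide them to inflamed tissue, keep little RNA, and hold a rapidly inducible set of cytokine and immediate early genes. GM-CSF acts on granulocytes through a receptor that signals by JAK2 and STAT5, prolongs their survival and drives new production in the marrow.

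Depth differed between the libraries and between clusters. Granulocytes gave 3674789 UMIs in the steady state and 2413074 after GM-CSF. The median granulocyte held 1770 UMIs (quartiles 1649 and 1962) and 861 genes in the steady state, and 1229 UMIs (974.5 and 1645) and 698 genes after GM-CSF. These were the lowest medians of the 12 clusters in both libraries, beside 6461.5 and 4404 UMIs for neutrophils. A count of 0 in the granulocytes of a library allowed up to 0.816 counts per 1000000 UMIs (CPM) in the steady state and 1.24 CPM after GM-CSF. The libraries shared 8 cell barcodes, 2 of them granulocytes in both, and doublet detection called 1 and 3 granulocytes. Granulocytes were 40.0% of the steady state library (95% exact binomial interval 38.6% to 41.4%) and 26.3% of the GM-CSF library (25.3% to 27.4%), shares that depend on the CD11b sort and on the number of other cells.

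The label was checked against marker genes. All 10 neutrophil markers were present, their summed level being 110680 CPM in the steady state and 106000 CPM after GM-CSF. In the cluster labelled Neutrophil the sum was higher, 264000 and 209160 CPM. S100a9 and S100a8, the subunits of the calcium-binding antimicrobial protein calprotectin, led with 50839 and 42189 CPM in the steady state and 51099 and 36641 CPM after GM-CSF. Neutrophils held more of both, 130190 and 123540 CPM in the steady state and 103890 and 90400 CPM after GM-CSF. Csf3r, the G-CSF receptor, stood at 4155 and 3314 CPM, with no other cluster above 366 CPM in the steady state and 242 CPM after GM-CSF. Cxcr2, the main neutrophil receptor for the CXCL chemokines, stood at 2389 and 1484 CPM, with neutrophils next at 335 and 225 CPM. The most abundant transcripts also included the nuclear RNA Malat1 with 40590 and 30820 CPM, the actin-binding peptide gene Tmsb4x with 28788 and 34788 CPM, Actb with 11424 and 9404 CPM, and Gm42418, a locus that overlaps ribosomal RNA, with 18491 and 30493 CPM.

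Markers of other cell types were scarce in the cluster. The 9 eosinophil markers summed to 37.6 CPM in the steady state and 75.4 CPM after GM-CSF, 3 of them had no UMI, and the granule proteins Prg2 and Epx were at 0 in both libraries. Siglecf, an eosinophil surface lectin, made most of that sum with 23.9 and 46.0 CPM, and 2.39% and 4.79% of cells thinned to 1000 UMIs held a UMI of it. The 7 basophil and mast cell markers summed to 2.45 and 0 CPM, with Mcpt8 and Prss34 at 0. Monocyte markers summed to 362 and 293 CPM, macrophage markers to 76.5 and 94.1 CPM with nearly all of it from Adgre1, and dendritic cell markers to 24.5 and 77.5 CPM with nearly all of it from H2-Aa. B cell markers gave 7.62 and 1.66 CPM, T cell markers 16.6 and 8.70 CPM, natural killer cell markers 6.8 and 2.07 CPM, erythroid markers 2.45 and 0.414 CPM, and platelet markers 1.36 and 2.49 CPM.

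The 6 genes that were given as markers of the cluster peaked in it in the steady state. Il1b, which encodes the inflammatory cytokine IL-1β (GRCm38 chr2:129364570-129371139, minus strand), stood at 7223 CPM in the steady state, against 906 CPM in the next cluster, the Progenitor DC. H2-Q10, a secreted class I-like molecule, stood at 900 CPM, Nlrp12, a regulator of NF-κB signalling, at 243 CPM, and Csf1, the growth factor of macrophages, at 237 CPM. Steap4, a metalloreductase, stood at 114 CPM and Cxcr1 (chr1:74191785-74194631, minus strand), a second CXCL chemokine receptor, at 28.6 CPM. After GM-CSF, 5 of the 6 still peaked in the cluster, and Cxcr1 did not: it gave 4.97 CPM (12 UMIs) in granulocytes and 15.9 CPM in the 20 cells of cDC2-A. The latter value is 1 UMI, and a count of 0 in those cells would allow up to 47.8 CPM. All 6 were lower in the GM-CSF library, 4 of them by at least 2-fold (3.2% of all genes tested were), with a summed level of 8745 CPM in the steady state and 3655 CPM after GM-CSF.

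**Figure D1:**
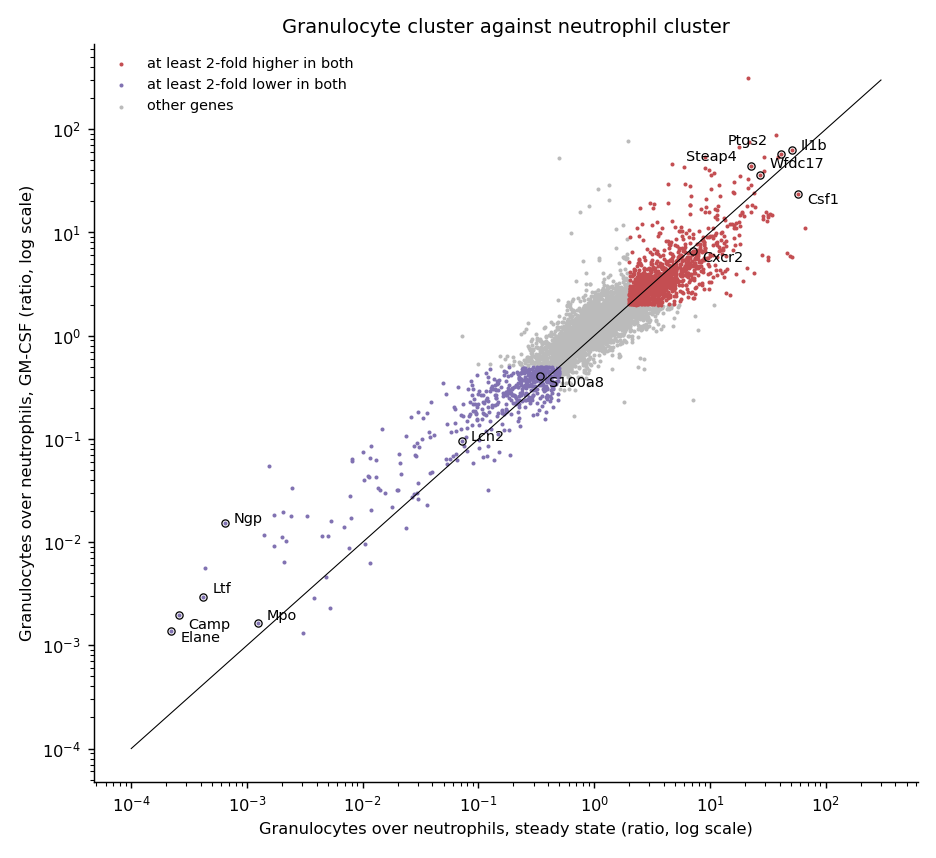
Ratio of CPM in granulocytes over neutrophils for each gene tested, steady state on the horizontal axis and GM-CSF on the vertical axis, both on log scales, with some of the genes described in the text named. The named genes at the ends lay far from 1 in both libraries: Il1b at 50.7 and 62.8, and Camp at 0.000259 and 0.00198.

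The study also labelled a cluster Neutrophil, of 146 steady state and 893 GM-CSF cells, and the granulocyte cluster was set against it. Because the clusters were made from the RNA of these cells, the contrast describes how they were divided and carries no test. Among 5730 genes, 1227 (21.4%) were at least 2-fold higher in granulocytes in both libraries and 484 (8.45%) at least 2-fold lower. This split depends on the scaling, since S100a8 and S100a9 took 25.4% and 19.4% of neutrophil UMIs and 9.30% and 8.77% of granulocyte UMIs. Scaled to the total without those genes, the counts were 907 higher and 595 lower, and scaled by the median of ratios they were 585 higher and 842 lower, which turned the balance. The large ratios given next are far above these shifts, which were at most 0.64 on the log2 scale.

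The 10 highest ratios over neutrophils included that of Il1b, which was 50.7 times (95% interval 43.4 to 59.9) the neutrophil level in the steady state and 62.8 times (54.9 to 72.5) after GM-CSF. Ptgs2, the inducible cyclooxygenase, was 41.4 and 58.2 times, Fgl2, a membrane prothrombinase, 38.5 and 53.7 times, and Clec4n, the fungal mannan receptor dectin-2, 37.2 and 87.4 times, on 2 and 7 neutrophil UMIs. Wfdc17, a small secreted proteinase inhibitor, was 27.1 and 35.6 times, Prr5l, a partner of the mTORC2 kinase complex, 29.2 and 53.9 times, and Il13ra1, a receptor chain for IL-13, 23.8 and 24.2 times. Csf1 was 57.5 and 23.8 times on 4 and 21 neutrophil UMIs, Steap4 22.6 and 43.7 times on 5 and 5, and Tnni2, a troponin subunit, 29.2 and 39.2 times on 1 and 5. Ratios on so few neutrophil UMIs are imprecise, and that of Clec4n had intervals of 12.8 to 385 and 44.9 to 234.

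Granule and cell division genes ran the other way. Camp, the precursor of the antimicrobial peptide cathelicidin, gave 9.80 CPM in steady state granulocytes and 38292 CPM in neutrophils, a ratio of 0.000259 (0.000179 to 0.000354). Ltf, lactoferrin, gave 5.44 and 13329 CPM, and Ngp, a cathelicidin-like granule protein, 23.1 and 36216 CPM. Elane, neutrophil elastase, had no UMI in 1929 steady state granulocytes and 1 UMI in 1791 after GM-CSF, against 612 and 455 CPM in neutrophils. That level came from few cells, since 3.42% and 3.58% of the cells labelled Neutrophil held a UMI of Elane, whereas 93.2% and 96.1% held one of Camp. With Camp, Ltf and Elane, the 10 lowest held the primary granule genes Mpo, Ctsg and Prtn3, the progenitor gene Ms4a3 and the ficolin gene Fcnb. The acute phase gene Orm1 and the histone gene Hist1h1b completed them, and Ngp was not among the 10. By list, 7 of 8 primary granule genes, 6 of 6 secondary granule genes and 9 of 9 cell cycle genes were at least 2-fold lower in granulocytes in both libraries, and none was 2-fold higher. Mki67, a proliferation marker, gave 1 UMI in the steady state and 7 after GM-CSF in granulocytes, and 291 and 267 CPM in neutrophils.

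The other lists were counted against the 21.4% of all genes that were 2-fold higher in granulocytes in both libraries and the 8.45% that were 2-fold lower. Of 15 immediate early genes 14 were at least 2-fold higher in both libraries, of 14 pattern recognition receptors 11, of 12 NF-κB genes 9, of 15 interferon response genes 10, and of 8 chemoattractant receptors 5. Mitochondrial transcripts were at least 2-fold lower in 10 of 12 cases and cytosolic ribosomal protein genes in 7 of 16. Glycolysis had 1 of 16 higher and 2 lower, and lipid mediator enzymes 2 of 7 each way. These counts depend on the scaling: by the median of ratios they were 11 immediate early genes, 10 pattern recognition receptors, 5 NF-κB genes, 9 interferon response genes and 3 chemoattractant receptors higher, and 12 mitochondrial and 11 ribosomal protein genes lower.

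The 2 conditions were then compared within the cluster, which bears on how the granulocytes of the spleen differ after GM-CSF. Of 6257 genes with at least 50 UMIs over both libraries, 456 (7.29%) were at least 2-fold higher after GM-CSF and 200 (3.2%) at least 2-fold lower. The median log2 ratio of all 6257 was 0.11. The list counts below are to be read beside these shares, and a count near them is no result about its list.

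**Figure D2:**
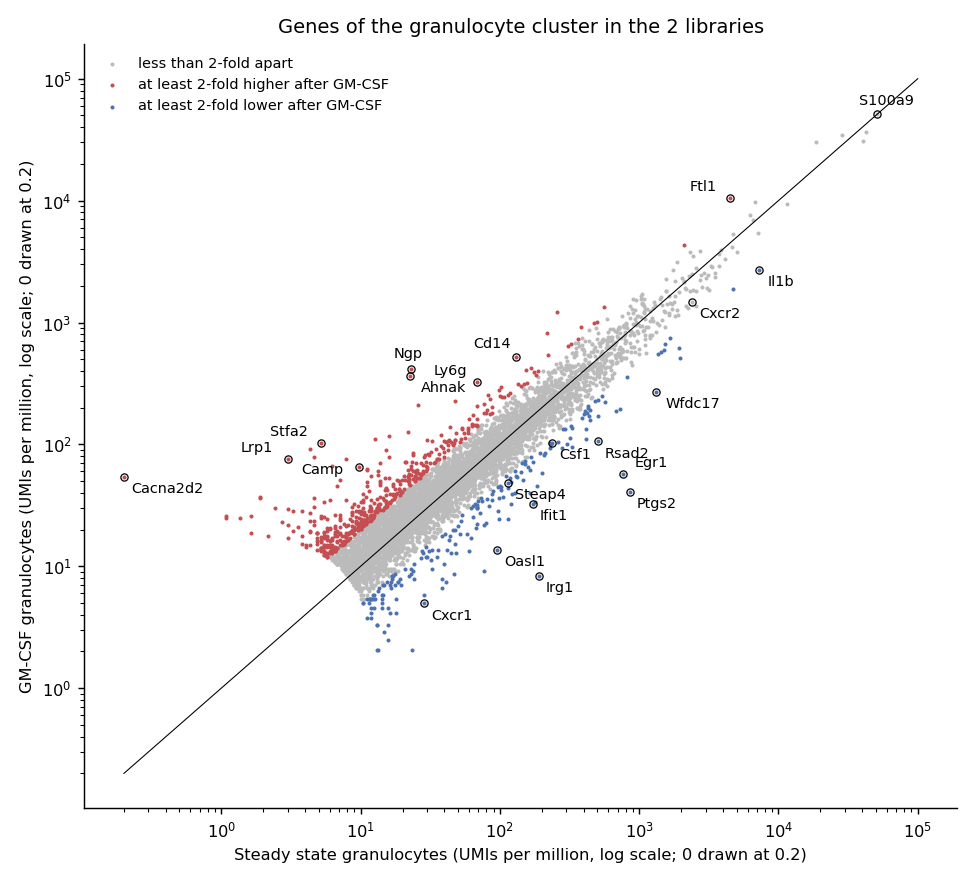
CPM of each gene in granulocytes, steady state on the horizontal axis and GM-CSF on the vertical axis, both on log scales with 0 drawn at 0.2; circled points with names are genes described in the text. Most genes lay near the line of equal level, with Ptgs2 and Egr1 far below it and Ngp, Ahnak and Lrp1 far above.

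The lowest ratio belonged to Irg1, which makes the antimicrobial metabolite itaconate, with 190 CPM in the steady state and 8.29 CPM after GM-CSF, 0.0446 times (0.0265 to 0.0678). Ptgs2 (chr1:150100031-150108227, plus strand) came next with 854 and 41 CPM, 0.0483 times (0.0389 to 0.0587), and its neighbouring antisense RNA Ptgs2os2 with 77.0 and 9.12 CPM, 0.121 times. Egr1, an immediate early transcription factor, gave 770 and 56.8 CPM, 0.0740 times (0.0616 to 0.0875). In cells thinned to 1000 UMIs, a UMI of Ptgs2 was found in 36.0% of granulocytes in the steady state and 2.86% after GM-CSF, and a UMI of Egr1 in 34.4% and 3.47%. Among B cells, T cells and cDC2-A, whose median depth was higher, the shares for Ptgs2 were 1.39% and 0%. That pool held 196 B cells, 174 T cells and 214 cDC2-A in the steady state, and 79, 39 and 20 after GM-CSF. Its ratios between libraries therefore mix composition with expression. Wfdc17 gave 1330 and 271 CPM, Vegfa, the vascular growth factor, 46.5 and 8.70 CPM, Retn, a resistin, 38.1 and 7.87 CPM, and Csrnp1, an inducible nuclear protein, 179 and 34 CPM. Gla, a lysosomal galactosidase, was 0.186 times its steady state level, and Btbd19 and Gm28192, whose roles are not described here, were 0.178 and 0.211 times.

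The highest ratios lay in genes that steady state granulocytes barely held. Cacna2d2, a calcium channel subunit, had 0 UMIs in the steady state and 130 after GM-CSF (53.9 CPM), at least 66.0-fold higher against a floor of 3 counts in the steady state granulocytes. Lrp1, an endocytic receptor of the LDL receptor family (chr10:127538161-127621148, minus strand), gave 2.99 and 75.4 CPM, 24.2 times (13.8 to 51.4). Ahnak, a giant scaffold protein, gave 22.6 and 365 CPM, 16.1 times (12.9 to 20.5), and Eps8, an actin regulator, 6.26 and 66.3 CPM. A UMI of Ahnak was found in 1.61% of thinned steady state granulocytes and 25.6% after GM-CSF, and in 34.8% and 26.5% of thinned B cells, T cells and cDC2-A, which express the gene. For Lrp1 the shares were 0.416% and 7.18% in granulocytes, and 1.91% and 0% in those other cells. Upp1, a uridine phosphorylase, was 8.06 times, Adpgk, an ADP-dependent glucokinase, 8.64 times, Fkbp1a, the immunophilin FKBP12, 7.70 times and Dbi, an acyl-CoA binding protein, 7.15 times. The non-coding Gm26917 and the unnamed gene 2010005H15Rik were 16.5 and 20.6 times their steady state level.

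Genes of the type I interferon response were the list with the most members at least 2-fold lower. This response is turned on when interferon activates transcription factors that bind a short element in the promoters of antiviral genes. To show that element, 150 bases of the promoter are printed for 6 members, from 190 to 41 bases before the start of the gene, on the gene's strand and from RefSeq on GRCm38.p6. Capitals mark matches to the core of the interferon-stimulated response element, a pair of GAAA separated by any 2 bases, or to its other strand, a pair of TTTC separated by 2 bases. The windows lie at chr19:34640699-34640848 for Ifit1, chr19:34583339-34583488 for Ifit3, chr4:156200859-156201008 (minus strand) for Isg15, chr12:26456493-26456642 (minus strand) for Rsad2, chr11:82951912-82952061 for Slfn5 and chr3:142620473-142620622 for Gbp2.
Ifit1: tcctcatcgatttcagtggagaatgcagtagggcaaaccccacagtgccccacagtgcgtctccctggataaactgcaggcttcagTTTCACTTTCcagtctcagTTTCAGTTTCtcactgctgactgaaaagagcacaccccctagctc
Ifit3: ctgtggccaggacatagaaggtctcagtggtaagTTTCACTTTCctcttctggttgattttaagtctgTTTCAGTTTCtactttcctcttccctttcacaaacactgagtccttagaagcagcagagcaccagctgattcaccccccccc
Isg15: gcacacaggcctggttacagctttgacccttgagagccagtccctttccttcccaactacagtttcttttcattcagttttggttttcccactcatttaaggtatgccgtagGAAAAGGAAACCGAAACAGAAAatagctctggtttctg
Rsad2: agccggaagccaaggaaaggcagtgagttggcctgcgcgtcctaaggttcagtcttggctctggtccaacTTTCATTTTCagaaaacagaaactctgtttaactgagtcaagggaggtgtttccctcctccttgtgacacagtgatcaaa
Slfn5: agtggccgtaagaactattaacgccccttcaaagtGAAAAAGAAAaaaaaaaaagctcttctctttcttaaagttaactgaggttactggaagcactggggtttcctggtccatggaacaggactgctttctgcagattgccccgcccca
Gbp2: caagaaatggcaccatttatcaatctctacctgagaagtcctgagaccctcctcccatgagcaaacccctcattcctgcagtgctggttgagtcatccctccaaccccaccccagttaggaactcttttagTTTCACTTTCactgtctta
The core occurred 2 times in the Ifit1 and Ifit3 windows, in 3 overlapping matches in Isg15, and 1 time in Rsad2, Slfn5 and Gbp2. Within the 250 bases before the start, 8 of the 17 members that matched a promoter held it (47.1%), as did 177 of the 4890 tested genes that matched (3.62%) and 978 of all 32851 promoters (2.98%). Of the 12 matched members that were at least 2-fold lower, 7 held it (58.3%). A match is a stretch of letters, not a bound site.

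Of the 19 interferon response genes tested, 14 were at least 2-fold lower after GM-CSF and none 2-fold higher, with a median log2 ratio of −1.50. Their summed level was 4553 CPM in the steady state and 2178 CPM after GM-CSF, 0.478 times (0.464 to 0.493). Rsad2, the antiviral enzyme viperin, gave 503 and 106 CPM, 0.210 times (0.183 to 0.239). Ifit1, which binds foreign RNA caps, gave 172 and 32.3 CPM, 0.189 times (0.147 to 0.238), and its neighbours Ifit3 and Ifit3b, which are near copies and may share reads, 0.289 and 0.224 times. Isg15, a ubiquitin-like modifier, gave 318 and 112 CPM, Slfn5 164 and 40.2 CPM, and the GTPase gene Gbp2 147 and 50.6 CPM. Oasl1, a 2′-5′-oligoadenylate synthetase-like protein, was 0.146 times its steady state level. Ifitm3, which blocks viral entry, was the most abundant member and moved little, with 1077 and 875 CPM. In the same libraries the list summed to 0.366 times in the MoMacDC clusters and 0.438 times in B cells, T cells and cDC2-A. In neutrophils it summed to 1585 and 1624 CPM, 1.02 times (0.973 to 1.08).

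**Figure D3:**
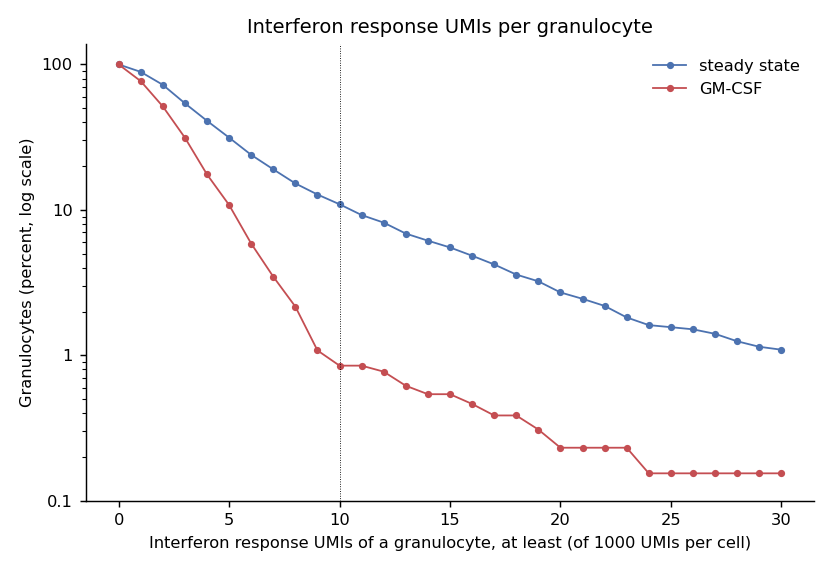
Percent of granulocytes (log scale) holding at least the number of interferon response UMIs on the horizontal axis, of 1000 UMIs drawn per cell, for each library. The lines part as the number grows: 10.9% of steady state cells and 0.849% of GM-CSF cells held at least 10.

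The interferon genes were unevenly spread over the cells. Among granulocytes thinned to 1000 UMIs, which kept 1921 of 1929 cells in the steady state and 1295 of 1791 after GM-CSF, the median cell held 3 and 2 interferon UMIs, the mean was 4.55 and 2.13, and the 95th percentile 15 and 6. The richest 10% of the cells held 40.8% and 35.3% of these UMIs. For immediate early genes, with a mean of 18.8 and 10.6 UMIs, the richest 10% held 17.6% and 21.5%. At least 10 interferon UMIs were found in 210 steady state cells (10.9%) and 11 GM-CSF cells (0.849%). The limit of 10 cuts a continuous range, since 12.8% of steady state cells held at least 9 and 9.21% at least 11. Those 210 cells gave 7348 CPM of Il1b and 2291 CPM of Cxcr2, and the other 1711 cells 7329 and 2399 CPM. Egr1 stood at 1024 CPM in the 210 cells and 764 CPM in the others, and S100a8 at 33490 and 42014 CPM. Median depth of the 210 cells was 1778.5 UMIs, against 1771 UMIs in the others. The 11 GM-CSF cells gave 4091 CPM of Il1b, and the other 1284 cells 2674.5 CPM.

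**Figure D4:**
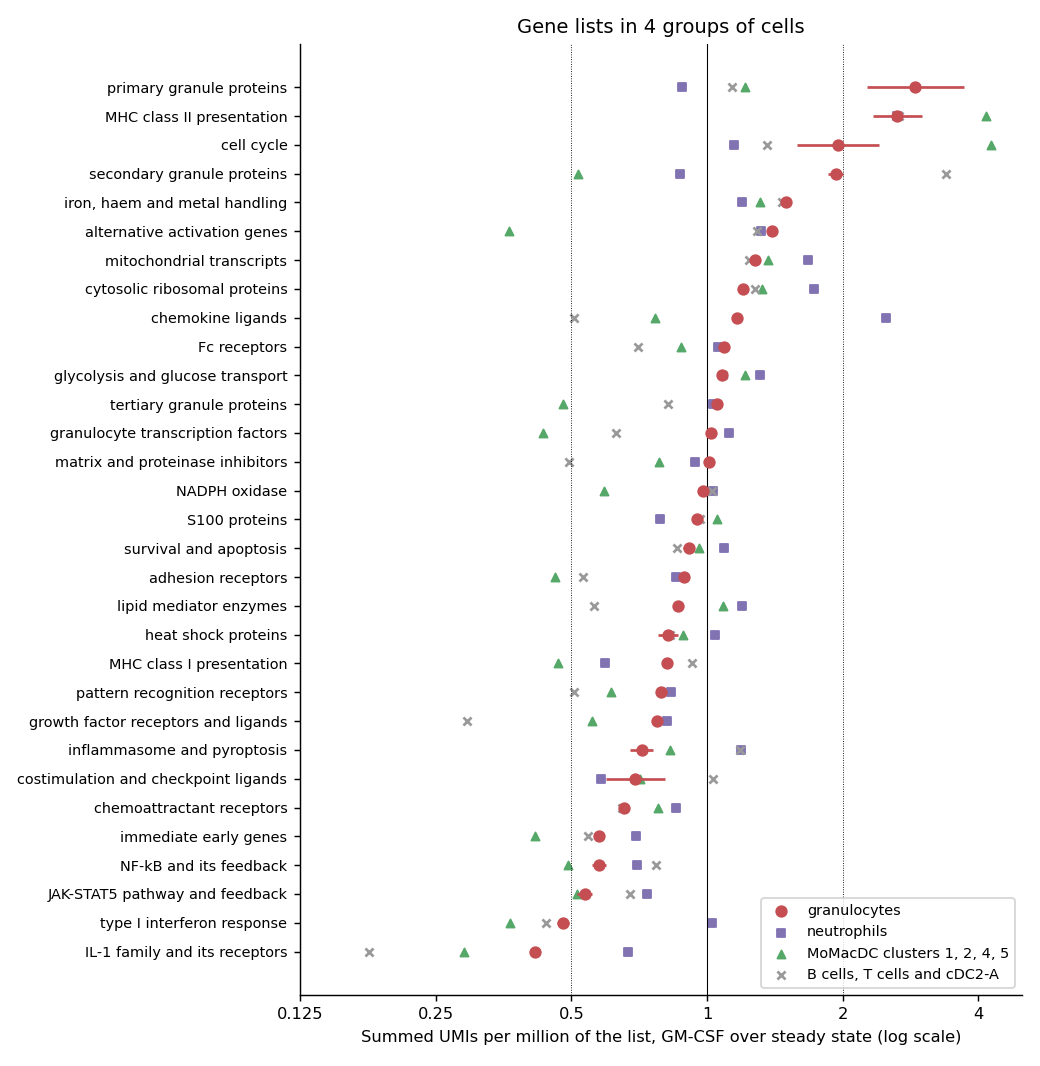
Summed CPM of each gene list after GM-CSF over steady state (log scale) in granulocytes with the 95% counting interval, and in neutrophils, MoMacDC clusters and B cells, T cells and cDC2-A. In granulocytes the lowest lists were IL-1 at 0.414 and interferon response at 0.478, and the highest primary granule at 2.90 and MHC class II at 2.64. Most of the primary granule sum came from Ctsc and Serpinb1a.

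The summed level of the IL-1 family was lower after GM-CSF. Of 6 IL-1 family genes tested, 2 were at least 2-fold lower and none higher, with a median log2 ratio of −0.42 and a summed level of 8282 and 3433 CPM. Il1b made most of it, with 7223 CPM in the steady state and 2702 CPM after GM-CSF, 0.374 times (0.364 to 0.384), and 97.8% and 79.6% of thinned cells held a UMI of it. Il1r2, the decoy receptor, gave 399 and 177 CPM, and Il1rn, the receptor antagonist, 251 and 154 CPM. The same list was 0.668 times in neutrophils, 0.289 times in MoMacDC clusters and 0.178 times in B cells, T cells and cDC2-A. In T cells, which do not make IL-1β, Il1b gave 245 CPM in the steady state and no UMI after GM-CSF, with an upper limit of 38.0 CPM from 39 cells. Of 8 inflammasome genes 1 was higher and 1 lower: Nlrp3, the sensor, gave 407 and 188 CPM, and Pycard, the adaptor ASC, 11.2 and 62.2 CPM, 5.52 times (3.92 to 8.08).

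Immediate early genes, which respond within minutes to stimulation, had 4 of 15 at least 2-fold lower and none 2-fold higher, with a median log2 ratio of −0.78. They summed to 18729 and 10787 CPM in granulocytes, 0.576 times, and to 0.694 times in neutrophils, 0.415 times in MoMacDC clusters and 0.544 times in B cells, T cells and cDC2-A. Fos gave 1917 and 617 CPM, 0.322 times (0.304 to 0.341), Atf3 184 and 46.0 CPM, and Fosb 68.8 and 22.4 CPM. Dusp1, a phosphatase that limits MAP kinases, and Junb were the most abundant, with 3523 and 2377 CPM and 3182 and 1849 CPM. Ier3 was the member with the highest ratio, 243 and 303 CPM. Heat shock genes had 2 of 9 at least 2-fold lower, Hspa1a and Hspa1b, near copies on 61 and 66 UMIs, and a summed ratio of 0.819. Of 12 NF-κB genes 3 were at least 2-fold lower and none higher: Nfkbiz, an inducible co-regulator, gave 564 and 224 CPM, Tnfaip2 1506 and 592 CPM, and Tnfaip3, the inhibitor A20, 52.0 and 18.2 CPM. Nfkbia, the inhibitor IκBα, gave 482 and 534 CPM, and the list's median log2 ratio was −0.17.

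Chemokine ligands did not move as a block. Of 7 tested, 2 were at least 2-fold lower, Ccl4 with 68.6 and 31.9 CPM and Cxcl10, an interferon-induced ligand, with 24.2 and 7.87 CPM, and the median log2 ratio was −0.91. In thinned cells Cxcl10 was 0.566 times, no longer 2-fold lower. Cxcl2, a neutrophil attractant, gave 797 and 507 CPM and Ccl3 89.8 and 47.7 CPM. Yet the sum was 1.17 times, because Ccl6, a CC chemokine of myeloid cells, gave 2740 and 3848 CPM. In neutrophils Ccl6 gave 150 and 501 CPM.

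The receptors that guide granulocytes did not all go one way. Of 9 chemoattractant receptors 2 were at least 2-fold lower and 1 higher, with a median log2 ratio of −0.67 and a summed ratio of 0.653. Cxcr2 gave 2389 and 1484 CPM, 0.621 times (0.598 to 0.646), and a UMI of it was found in 87.0% and 76.1% of thinned cells. Cxcr4, which retains neutrophils in the marrow and marks aged ones, gave 894 and 450 CPM, Ccr1 1186 and 744 CPM, and Ptafr, the receptor for platelet-activating factor, 0.481 times. The formyl peptide receptors Fpr1 and Fpr2 gave 158 and 152 CPM and 276 and 264 CPM. Ltb4r1, the leukotriene B4 receptor, went the other way with 84.6 and 237 CPM, 2.80 times (2.44 to 3.23). No adhesion receptor of 8 passed 2-fold. Icam1 had the highest ratio with 19.0 and 32.3 CPM, and Cd44 and Selplg were the most abundant with 1926 and 1783 CPM and 1249 and 1026 CPM. Itgam, which encodes CD11b, the protein used in the sort, gave 580 and 617 CPM.

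Among 14 pattern recognition receptors 1 was at least 2-fold higher and 2 lower, with a median log2 ratio of −0.15. Of all genes tested 7.29% were higher and 3.2% lower, so the 1 higher receptor is near the share of all genes. Cd14, the co-receptor for bacterial lipopolysaccharide, gave 131 CPM in the steady state and 519 CPM after GM-CSF, 3.96 times (3.57 to 4.41), and 9.94% and 35.1% of thinned cells held a UMI, against 0.174% and 0% of B cells, T cells and cDC2-A. Trem1, which amplifies inflammatory signals, gave 507 and 170 CPM, and Clec4e, the receptor Mincle, 430 and 201 CPM. Of 4 Fc receptors 1 was higher, the inhibitory Fcgr2b with 11.2 and 45.6 CPM, while Fcer1g, the shared signalling chain, and Fcgr3 gave 2265 and 2429 CPM and 620 and 714 CPM. Of 4 costimulation and checkpoint genes 1 was lower, Cd274, the ligand PD-L1, with 88.2 and 34.8 CPM, and 1 was 2.03 times, Cd86, which was under 2-fold by other scalings.

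The receptor for GM-CSF itself was present. Csf2ra, its specific chain, gave 287 and 219 CPM and Csf2rb, the shared signalling chain, 353 and 249 CPM, and of 6 growth factor receptors and ligands only Csf1 was at least 2-fold lower, with 237 and 104 CPM. Csf1 was 0.517 times, no longer 2-fold lower, when the 25% of cells richest in granule RNA were left out of each library. Of 8 genes of the JAK2 and STAT5 pathway and its feedback, 3 were at least 2-fold lower and none higher, with a summed level of 2784 and 1492 CPM and a median log2 ratio of −0.63. Pim1, a kinase that STAT5 induces, gave 1438 and 576 CPM, Osm, the cytokine oncostatin M, 304 and 101 CPM, and Socs1 14.2 and 5.39 CPM. Socs3, a feedback inhibitor, gave 358 and 200 CPM, while Jak2 had the highest ratio with 78.1 and 115 CPM. Cish, another STAT5 target, had 4 and 30 UMIs, too few for the minimum of 50.

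Granule genes were higher after GM-CSF in small amounts. Of 6 secondary granule genes tested 5 were at least 2-fold higher and none lower, with a median log2 ratio of 2.45 and a summed level of 1173 and 2261 CPM, 1.93 times (1.85 to 2.01). The same sum was 111370 and 97116 CPM in neutrophils, 0.872 times. In B cells, T cells and cDC2-A, which should not make these proteins, it was 184 and 625 CPM, 3.40 times (2.90 to 3.97). That pooled level was uneven after GM-CSF: 92.6% of those cells, once thinned, held no UMI of the list and the richest held 33. T cells alone gave 147 CPM in the steady state and 103 CPM after GM-CSF, on 107 and 10 UMIs. Ngp (chr9:110419747-110423012, plus strand) gave 23.1 and 417 CPM, 17.9 times (14.4 to 22.8), and Camp 9.80 and 65.5 CPM, 6.61 times (4.63 to 9.89). In the pooled B cells, T cells and cDC2-A, Ngp gave 8.12 and 190 CPM, 22.9 times, and Camp 5.28 and 180 CPM, 33.1 times. After GM-CSF Camp was therefore lower in granulocytes than in that uneven pool. T cells alone gave 10.3 CPM of Camp after GM-CSF (1 UMI, 0.261 to 57.3 CPM), which was below granulocytes. Lcn2, the iron-scavenging lipocalin, made most of the sum with 1075 and 1550 CPM, Cd177, a neutrophil surface protein, was 2.51 times, and Chil3, a chitinase-like protein, 4.88 times. A UMI of Ngp was found in 2.08% and 18.1% of thinned granulocytes and in 0.870% and 2.21% of B cells, T cells and cDC2-A. For Camp the shares were 1.09% and 4.25% against 0.522% and 3.68%, so that after GM-CSF Camp was near the level of the pooled cells. The counts of Ngp and Camp stood in a ratio of 2.36 in steady state granulocytes and 6.37 (5.38 to 7.59) after GM-CSF, but 0.821 in neutrophils and 1.05 (0.757 to 1.47) in B cells, T cells and cDC2-A of the GM-CSF library. Ly6g, the surface antigen of mature mouse neutrophils, gave 68.8 and 325 CPM, with a UMI in 5.52% and 19.4% of thinned granulocytes and in none of the B cells, T cells and cDC2-A.

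Of 3 primary granule genes tested, 2 were higher. Ctsc, the proteinase that activates elastase, gave 11.2 and 49.3 CPM, and Serpinb1a, an elastase inhibitor, 6.53 and 17.8 CPM. The list summed to 27.5 and 79.6 CPM. Most of both sums came from these 2 genes, so the summed ratio says little about the other members. In thinned cells Serpinb1a was 1.87 times, no longer 2-fold higher. Tertiary granule genes had none of 5 past 2-fold, with Mmp9, gelatinase B, at 2388 and 2508 CPM, the haptoglobin gene Hp at 1414 and 1557 CPM, and Adam8 the lowest at 546 and 286 CPM. S100 genes had 1 of 5 higher, S100a4, with 18 and 45 UMIs, where 7.29% of all genes tested were higher. Of 6 NADPH oxidase genes 1 was higher, Cybb, the catalytic subunit, with 82.2 and 256 CPM. Retnlg, a resistin-like protein of neutrophils, gave 6824 and 9705 CPM, and with Chil3 it led the alternative activation list, of which 1 of 4 was higher. Arg1, a defining gene of that list, had no UMI in either library.

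The granule level differed between cells of the cluster. The share of a granulocyte's UMIs that came from secondary granule genes had a median of 0.0594% in the steady state and 0.0883% after GM-CSF. Its 95th percentile was 0.424% and 0.737%. At full depth, which differed between the libraries, 34.3% and 39.4% of cells had none. Among thinned granulocytes the direction turned, with 50.2% of cells in the steady state and 38.8% after GM-CSF holding none. Thinning left out shallow cells, 8 of 1929 in the steady state and 496 of 1791 after GM-CSF. The GM-CSF cells without a granule UMI at full depth were shallow, with a median of 1051 UMIs against 1229 UMIs in all GM-CSF granulocytes. How much of the turn came from leaving out such cells was not tested. After GM-CSF the 447 cells of the highest 25% gave 21453 CPM of Retnlg, 59344 CPM of S100a8, 710 CPM of Ly6g and 1796 CPM of Il1b. The 705 cells without a UMI of these genes gave 1588 CPM of Retnlg, 18667 CPM of S100a8, 71.0 CPM of Ly6g and 3346 CPM of Il1b. In the steady state the 482 cells of the highest 25% and the 662 cells without a UMI lay closer, with 9323 and 5007 CPM of Retnlg and 6778 and 7722 CPM of Il1b. Csf1 gave 35.7 CPM in the highest 25% and 165 CPM in the cells without a UMI after GM-CSF, and 168 and 301 CPM in the steady state. Median depth was 1680 UMIs in the highest 25% and 1051 UMIs in the cells without a UMI after GM-CSF. Without the highest 25% of each library, Ngp was 4.99 times its steady state level, Camp 4.15 times, Stfa2 8.05 times, Chil3 1.46 times, and Retnlg 0.728 times, which turned its direction. The alternative activation list likewise went from 1.39 to 0.745 times. Ngp, Camp and Chil3 are among the genes that ranked the cells for this cut, so a fall in their ratios was partly built in.

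Proteinase inhibitors of the stefin family were among the genes with the highest ratios. Stfa2 gave 5.17 and 103 CPM, 19.5 times (12.5 to 33.7), Stfa3 7.89 and 75.8 CPM, and BC100530 16.1 and 118 CPM. These genes are close copies of each other, so reads may be divided wrongly among them, and Stfa2l1, the most abundant, gave 617 and 881 CPM. In all 4 of 11 genes of matrix and proteinase inhibition were at least 2-fold higher and 1, Wfdc17, lower. Slpi, the leukocyte proteinase inhibitor, gave 3836 and 3960 CPM. The list's median log2 ratio was 0.51, while its summed ratio was 1.01.

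Iron, lipid and energy genes moved singly. Ftl1, the ferritin light chain, gave 4472 and 10513 CPM, 2.35 times (2.30 to 2.40), while Fth1, the heavy chain, gave 6616 and 6914 CPM. Of 7 metal genes 1 was higher and 1, Steap4, lower, beside 7.29% and 3.2% of all genes tested. Of 7 lipid mediator enzymes Ltc4s, which makes leukotriene C4, gave 2.45 and 29.8 CPM, 11.6 times (6.07 to 27.7), and Ptgs1, the constitutive cyclooxygenase, 13.3 and 60.9 CPM, beside the lower Ptgs2. Alox5ap, which serves leukotriene synthesis, gave 1798 and 2206 CPM. Of 17 glycolysis genes only Slc2a3, a glucose transporter, passed 2-fold, with 480 and 228 CPM, while Ldha was highest with 171 and 292 CPM.

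Survival genes had 3 of 12 at least 2-fold higher and none lower, beside 7.29% and 3.2% of all genes tested. Their median log2 ratio was 0.49. Bax, which promotes apoptosis, gave 25 and 70.9 CPM, and the antiapoptotic Bcl2a1a and Bcl2a1b, near copies, were 2.27 and 2.54 times. Mcl1, on which neutrophil survival depends, gave 2743 and 2214 CPM. Of 10 transcription factors Cebpe, which drives granule genes, gave 28.8 and 82.1 CPM and Cebpa was 2.29 times, while Hif1a, the oxygen-regulated factor, gave 132 and 53.9 CPM. Cebpb and Klf2 were the most abundant, with 2148 and 1936 CPM and 1568 and 1828 CPM. Cytosolic ribosomal protein genes had 1 of 16 higher, Rplp0, and a median log2 ratio of 0.61, in neutrophils a summed ratio of 1.73 against 1.20 in granulocytes. No mitochondrial transcript of 12 passed 2-fold, with a summed ratio of 1.28. The mitochondrial share of UMIs had a median of 0.315% and 0.519%. Only 2 cell cycle genes reached the minimum, Tubb5 with 25.3 and 61.7 CPM and Pcna on 56 UMIs.

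Of 13 genes of MHC class I presentation 1 was at least 2-fold lower, H2-T23, which presents to natural killer receptors, with 420 and 180 CPM. H2-D1 and B2m were the most abundant with 3351 and 2878 CPM and 2178 and 1876 CPM. All 4 class II genes tested were higher, and the list summed to 109 and 287 CPM. T cells, which should not make class II in mice, gave 143 CPM in the steady state and 515 CPM after GM-CSF. The latter rests on 50 UMIs from 39 cells (382 to 678 CPM). Granulocytes lay below T cells in both libraries. Neutrophils gave 66.9 and 176 CPM, so granulocytes lay above neutrophils. MoMacDC clusters gave 5508 and 22946 CPM.

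**Figure D5:**
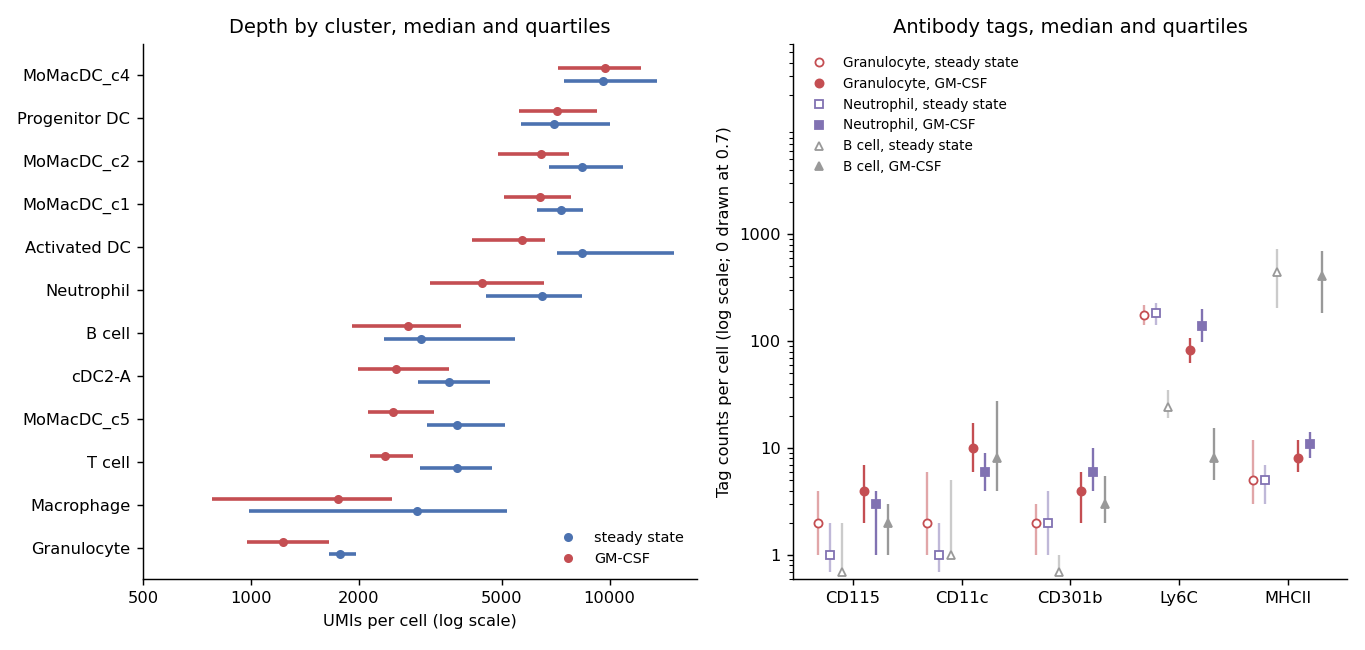
UMIs per cell by cluster and library (left, log scale, median and quartiles) and antibody tag counts per cell for granulocytes, neutrophils and B cells (right, log scale, 0 drawn at 0.7, median and quartiles). Granulocytes had the lowest UMI medians, 1770 and 1229, and a Ly6C tag median of 176 in the steady state and 82 after GM-CSF.

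Surface tags were compared within each library first. The Ly6C tag, which binds an antigen of monocytes and, more weakly, neutrophils, had a median of 176 counts per granulocyte in the steady state and 82 after GM-CSF, and 24 and 8 counts on B cells. The MHC II tag had a median of 5 and 8 counts, beside 5 and 11 counts on neutrophils and 444 and 407 counts on B cells, and no cluster had a lower median in either library. CD115, the macrophage colony-stimulating factor receptor, had a median of 2 and 4 counts, CD11c 2 and 10 counts, and the lectin CD301b 2 and 4 counts, and in neutrophils these were 1 and 3, 1 and 6, and 2 and 6 counts. Between libraries the Ly6C mean of granulocytes was 0.462 times the steady state value, but relative to B cells of the same library it was 3.06 times, so no direction can be given for it. The B cell mean of Ly6C was 103 and 15.5 counts, above the medians of 24 and 8, so few B cells weighed heavily. CD11c was 2.22 times, and 1.02 times relative to B cells. Each condition had its own tag library, and the part of staining and sequencing in these ratios was not tested.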

How the data were processed

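RNA and antibody tags were measured in 2 libraries of sorted mouse CD11b+ spleen cells by CITE-seq with 10x 3′ chemistry. The authors aligned and counted the RNA with Cell Ranger 3.0.2 on mm10, removed cells under 200 or over 5000 genes or above 15% mitochondrial UMIs, and integrated the libraries in Seurat 3.6.0 on 2000 variable genes before they labelled the clusters. The deposited RNA and tag tables hold raw UMI counts per cell, and the deposited cell table gives the cluster label and the authors' mitochondrial percent and totals. No columns of samples were left out, and the subset of mononuclear phagocytes deposited separately was not used.

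Raw counts of the cells of a cluster were summed per library and scaled to 1000000 to give CPM, with exact Poisson 95% intervals. Ratios had 0.5 counts added to each sum, and their intervals came from the exact binomial share of the counts. Cells of 1 library are not replicates, so genes with at least 50 UMIs over both sums were called at a 2-fold ratio, with no test. Where a group had 0 counts, the floor was 3 counts. Shares of cells with a UMI used cells thinned to 1000 UMIs (seed 20), which left out 8 steady state and 496 GM-CSF granulocytes. Doublets were called with the Scrublet method in scanpy 1.11.5 and kept, their removal being an alternative. Python 3.11.15, numpy 2.4.6, scipy 1.17.1, pandas 2.3.3 and matplotlib 3.10.9 were used, and the ratios were tested on simulated data. Gene positions are from GENCODE and promoters from RefSeq, both on GRCm38.

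The 31 gene lists, the 12 marker lists and the cluster itself were chosen with earlier results of these data known. Genes named were the 15 highest and 15 lowest ratios among genes with at least 100 UMIs, the 10 highest and 10 lowest against neutrophils, the 10 most abundant, the 6 given markers, and of each list the 2 most abundant and the members with the highest and lowest ratio. Further list members were named after their values were seen. MoMacDC clusters are clusters 1, 2, 4 and 5 of the authors' labels, and B cells, T cells and cDC2-A were summed as cells that should lack neutrophil transcripts. The proportions of B cells, T cells and cDC2-A in that sum differed between the libraries. Some list members are counted in their lists and not reported here by name.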

Additional observations from a re-analysis of the deposited data

Results flagged for a closer look

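For 10 of the named genes the ratio of GM-CSF over steady state went opposite ways in granulocytes and in neutrophils, with counting intervals that lay on opposite sides of 1. With 1 library per condition the difference itself was not tested. By the median of ratios 10 of the 10 did so, and with the total taken without S100a8 and S100a9, 7 did. Higher in granulocytes and lower in neutrophils were Lrp1 (24.2 and 0.281 times), Ngp (17.9 and 0.753 times), Camp (6.61 and 0.867 times), Ltf (6.13 and 0.874 times) and S100a4, a calcium-binding protein (3.75 and 0.273 times). The Lrp1 value rests on 11 and 182 granulocyte UMIs and 18 and 23 neutrophil UMIs, and that of S100a4 on 18 and 45 and on 25 and 31. In B cells, T cells and cDC2-A, which should not make them, Ngp went from 8.12 to 190 CPM (22.9 times), Camp from 5.28 to 180 CPM (33.1 times) and Ltf from 4.87 to 77.9 CPM (15.6 times). After GM-CSF, granulocyte Camp with 65.5 CPM and Ltf with 34 CPM were therefore below those pooled cells. Ngp with 417 CPM was above them. The pooled level was uneven, since 92.6% of those cells, once thinned, held no secondary granule UMI and the richest held 33. T cells alone gave 10.3 CPM of Camp (1 UMI, 0.261 to 57.3 CPM) and 61.7 CPM of Ngp after GM-CSF. In absolute terms Ngp stayed far below neutrophils in both libraries, at 0.000642 and 0.0153 times their level.

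Lower in granulocytes and higher in neutrophils were S100a11 (0.75 and 1.07 times), the antiviral membrane gene Ifitm3 (0.812 and 1.11 times), the mitochondrial arginase gene Arg2 (0.763 and 1.48 times), and the ribosomal protein genes Rps9 (0.968 and 1.3 times) and Rplp1 (0.813 and 2.16 times). S100a8 and S100a9 took 25.4% of neutrophil UMIs in the steady state and 19.4% after GM-CSF. With the total taken without them, the neutrophil ratio was 0.995 (0.948 to 1.04) for S100a11, 1.03 (0.966 to 1.10) for Ifitm3 and 1.37 (0.977 to 2.01) for Arg2, so that these 3 no longer lay apart from 1. Rps9 was then 1.21 times and Rplp1 2.0 times.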

How the results depend on the processing

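Of the 456 higher and 200 lower genes, a minimum of 200 UMIs left 147 and 118 of 3539 tested, and a minimum of 1 UMI gave 2693 and 839 of 12782. Under the other settings the counts were 317 to 476 higher and 175 to 208 lower. Against neutrophils the 1227 higher and 484 lower genes became 806 and 170 at 200 UMIs, 585 and 842 with scaling by the median of ratios, and 756 and 130 in thinned cells. Fewer genes could be tested at 200 UMIs and in thinned cells.

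Tag ratios, by the mean 2.09 for CD115, 2.22 for CD11c, 0.462 for Ly6C, 0.742 for MHC II and 1.96 for CD301b, moved most. By the median count they were 2 for CD115, 5 for CD11c, 0.466 for Ly6C and 1.6 for MHC II. As a share of all 5 tags they were 3.69, 3.93, 0.818 and 1.31, and 3.46 for CD301b. Relative to B cells they were 1.85, 1.02, 3.06, 0.762 and 0.283. Ly6C and CD301b thus turned direction relative to B cells, and MHC II turned by the median and by the share. The B cell means used here lay far above the medians for Ly6C in the steady state, 103 against 24 counts. For CD301b after GM-CSF they were 11.2 against 3 counts, with a highest cell of 459. The cause of the turns was not tested. The 75th percentile of the granule share was 0.167% and 0.242%, and 0.2% and 0.3% in thinned cells, whose shares come in steps.

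No gene list lost its 2-fold call, and none of the 31 lists or 152 named genes changed sign where called. Calls lost in thinned cells were Fcnb, Serpinb1a (1.87), Cxcl10 (0.566), Cd86 (1.99) and Pcna (0.758). Without the 25% of cells richest in granule RNA they were Fgl2 (0.502), Csf1 (0.517), Orm1, Cd86 (1.84), Chil3 (1.46) and Pcna (0.656). Chil3 is itself among the genes that ranked those cells. Under that setting Adpgk was 4.80 and Irg1 0.0280. The total without ribosomal RNA-related genes was added after seeing the data and gave 476 higher and 188 lower, and so were the scalings of the gene ratios in neutrophils and of the list counts against neutrophils, and the values of the cells without a granule UMI. No paired analysis was possible because there was 1 library per condition. Depth limits genes under about 50 UMIs, since GM-CSF granulocytes held 0.694 times the median UMIs of steady state ones.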
